A study of Mus musculus with 5 samples.

Results

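The 10 genes described here make bile acids in the liver or control how much is made: Cyp7a1, Cyp8b1, Hsd3b7 and Akr1d1 of the classical pathway, Cyp27a1 and Cyp7b1 of the alternative pathway, Slc27a5 and Baat of conjugation, and the nuclear receptors Nr1h4 (FXR) and Nr0b2 (SHP). They were taken by gene symbol from a table of 22287 genes, where each of the 10 symbols was listed once, and all 10 were among the 10132 genes tested. The samples were liver tumours of C57BL/6 mice treated over 5 months with the carcinogen DEN and with CCl4, which injures the liver. The knockout (KO) group was lnc-CTHCC-/- and had 3 libraries, and the wild-type (WT) group had 2 libraries. Both groups had the same carcinogen treatment. lnc-CTHCC is a long non-coding RNA, and the design sets tumours that lack it against tumours that have it. Its own transcript was not analysed here, so genotypes are those of the labels.

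Hepatocytes turn cholesterol into bile acids by a classical pathway that Cyp7a1 opens and by an alternative pathway that begins with the side-chain hydroxylase Cyp27a1. The products are joined to taurine or glycine before they are exported into bile. Bile acids activate FXR, which induces SHP in the liver and the hormone FGF15 in the ileum, and both of these signals lower Cyp7a1 and Cyp8b1.

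Values are FPKM, which divides a gene's fragments by its length and by the size of the library, so levels can be compared between genes. A difference is that of KO minus WT in log2(FPKM + 1), from limma fitted to all genes tested; it is given with its SE and understates the change of low genes. In genes with a single annotated transcript the low FPKM values fell on steps, with 89.3% to 92.4% of them within 0.15 of a whole number of fragments, against 30% if spread evenly, the step being fitted to the same values. The steps put the depth at about 28300000 fragments for KO 1, 28300000 for KO 2, 28200000 for KO 3, 23900000 for WT 1 and 27900000 for WT 2. The hepatocyte transcript Alb was at 78320 to 83027 FPKM in KO and at 74739 to 94258 FPKM in WT tumours, and all 8 hepatocyte markers examined passed the filter of a mean of at least 1 FPKM. Of the 8, 6 were lower and 2 higher in fitted level in KO, against 38.6% lower over all genes tested, and none passed the test. Ttr, at 2387, 2353 and 2604 FPKM in KO and 4216 and 2955 FPKM in WT libraries, and Serpina1c, at 5316, 4576 and 4995 FPKM in KO and 5834 and 5651 FPKM in WT libraries, were below WT in each KO library. They were the 2 of the 8 in which the genotypes did not overlap, against 15.1% of all genes tested. Apoa1 (difference 0.19, SE 0.26) and Apob (difference 0.26, SE 0.18) were the higher ones. The 8 markers summed to 109468 to 110473 FPKM in KO and to 100047 to 127243 FPKM in WT libraries, so the sums overlapped, and most of each sum was Alb. In bulk tissue, fewer hepatocytes and less RNA per hepatocyte cannot be told apart.

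None of the 10 genes differed between KO and WT tumours at an adjusted p of 0.05 (limma, Benjamini-Hochberg over all genes tested; the adjusted p was 0.999 for each), where 0.00987% of all genes tested did. None had an unadjusted p under 0.05 either, against 3.23% of all genes tested. The libraries of the genotypes overlapped for all 10, whereas they did not overlap for 15.1% of all genes tested. The largest difference was that of Nr0b2, with a mean of 8.75 ± 3.54 FPKM in KO tumours (SD, n = 3) and 19.6 ± 13.6 FPKM in WT tumours (SD, n = 2). For each of the 10 genes, the gap between libraries of 1 genotype was larger than the difference between the genotypes.

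**Figure D1:**
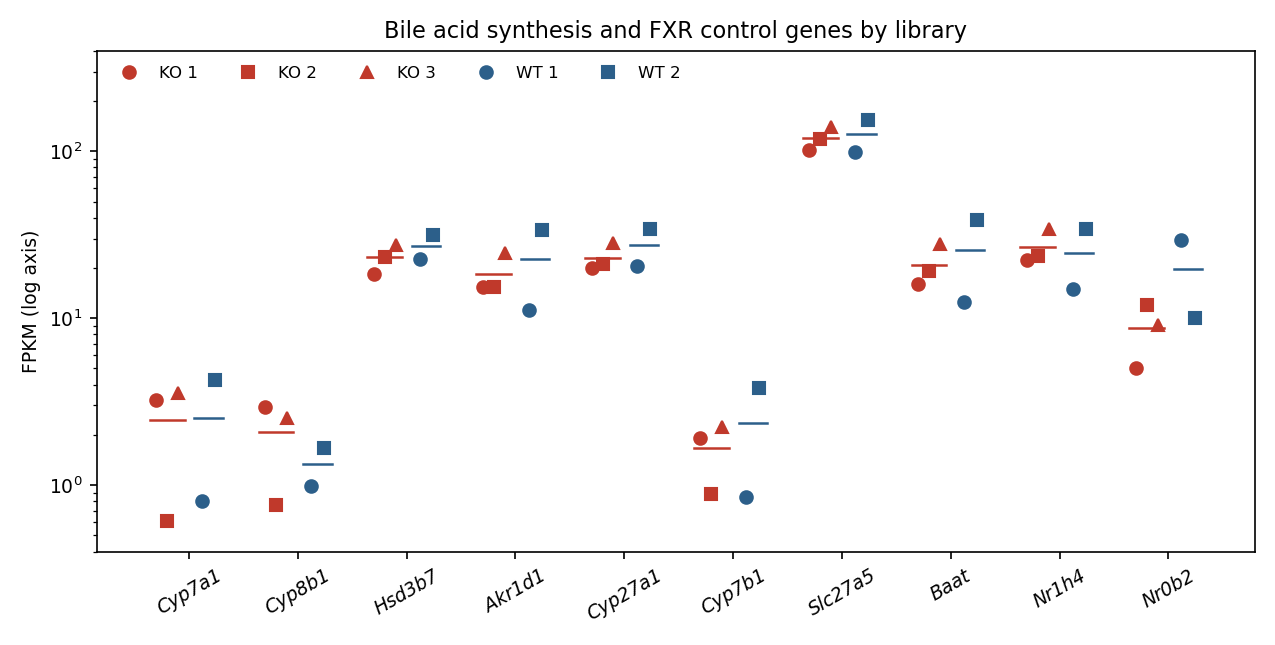
FPKM of the 10 genes on a log axis, with 1 point per library, KO libraries left of WT libraries for each gene and a short line at each group's mean. Slc27a5 stands highest, at 99.5 to 155 FPKM, and Cyp7a1, Cyp7b1 and Cyp8b1 lowest, all under 5 FPKM, and the points of the genotypes overlap for every gene.

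In FPKM the 10 genes fell into 3 levels. Slc27a5, the ligase that activates bile acids with coenzyme A before conjugation, averaged 123 FPKM over the 5 libraries and lay above every other member in each of them. Nr1h4, Cyp27a1, Hsd3b7, Baat, Akr1d1 and Nr0b2 averaged 25.8 to 13.1 FPKM, and each neighbouring pair in that order overlapped in the range of its libraries. The hydroxylases Cyp7a1, Cyp7b1 and Cyp8b1 averaged 2.49, 1.94 and 1.78 FPKM and overlapped with each other in the same way. All libraries had Nr0b2 above Cyp7a1, and those ranges did not overlap.

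Cyp7a1 (ENSMUSG00000028240, chromosome 4, 6265612 to 6275633, minus strand, mm10 coordinates from GENCODE vM21 as for all genes below) encodes the rate-limiting enzyme of the classical pathway. It was at 3.22, 0.61 and 3.54 FPKM in KO 1, KO 2 and KO 3, against 0.80 and 4.27 FPKM in WT 1 and WT 2. Each genotype thus held libraries at both a low and a high level, and the highest library was 7.0 times the lowest. The difference of 0.03 (SE 0.53, 95% interval -1.17 to 1.22) had an interval that spans more than 1 log2 unit either way. At the estimated depth and with the longest annotated transcript, the low values correspond to about 72 fragments in KO 2 and 80 in WT 1, and the high ones to between 381 and 498.

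Cyp8b1 (ENSMUSG00000050445, chromosome 9, 121914356 to 121916305, minus strand) encodes the sterol hydroxylase that directs synthesis towards cholic acid. It was at 2.95, 0.76 and 2.54 FPKM in the KO libraries, against 0.99 and 1.67 FPKM in the WT libraries. KO 2 and WT 1 were again the low libraries, with about 42 and 46 fragments. Its mean was 2.08 ± 1.16 FPKM in KO (SD, n = 3) and 1.33 ± 0.481 FPKM in WT tumours (SD, n = 2), with a difference of 0.34 (SE 0.34, 95% interval -0.43 to 1.10). The ratio of Cyp8b1 to Cyp7a1 within a library, which does not depend on its scaling, was 0.916, 1.25 and 0.718 in KO and 1.24 and 0.391 in WT. The libraries of the genotypes overlapped in this ratio (exact two-sided permutation p = 0.6), and since 5 libraries cannot give a p under 0.1, the test could not have reached 0.05.

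The later enzymes of the classical pathway had higher levels than Cyp7a1 and Cyp8b1 in every library. Hsd3b7 (ENSMUSG00000042289, chromosome 7, 127800604 to 127803802, plus strand), the dehydrogenase that acts on the sterol nucleus after Cyp7a1, was at 18.4, 23.4 and 27.6 FPKM in KO and at 22.7 and 31.6 FPKM in WT libraries. Its difference was -0.22 (SE 0.22, 95% interval -0.73 to 0.29). Akr1d1 (ENSMUSG00000038641, chromosome 6, 37530173 to 37568815, plus strand), the reductase that gives the steroid ring its bile acid shape, was at 15.3, 15.5 and 24.5 FPKM in KO and at 11.3 and 33.7 FPKM in WT libraries. The KO values of Akr1d1 lay between the WT values, and its difference was -0.12 (SE 0.40, 95% interval -1.03 to 0.79).

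In the alternative pathway, Cyp27a1 (ENSMUSG00000026170, chromosome 1, 74713574 to 74737892, plus strand), the mitochondrial side-chain hydroxylase, was at 19.9, 21.1 and 28.2 FPKM in KO libraries and at 20.6 and 34.0 FPKM in WT libraries, a difference of -0.21 (SE 0.25, 95% interval -0.77 to 0.35). Cyp7b1 (ENSMUSG00000039519, chromosome 3, 18071950 to 18243338, minus strand), the oxysterol hydroxylase of that pathway, was at 1.91, 0.89 and 2.23 FPKM in KO and at 0.85 and 3.84 FPKM in WT libraries. The low libraries of Cyp7b1 were KO 2 and WT 1, as for Cyp7a1 and Cyp8b1. These libraries also had the fewest genes at 1 FPKM or more, 9914 in KO 2 and 9721 in WT 1, against 10045 to 10363 in the others. Its mean was 1.68 ± 0.700 FPKM in KO (SD, n = 3) and 2.35 ± 2.11 FPKM in WT tumours (SD, n = 2), and its difference was -0.20 (SE 0.39, 95% interval -1.09 to 0.69). Its ratio to Cyp7a1 was 0.593, 1.46 and 0.63 in KO and 1.06 and 0.899 in WT libraries (exact two-sided permutation p = 0.6).

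The conjugating enzymes had their highest value in WT 2 and their lowest in WT 1. Slc27a5 (ENSMUSG00000030382, chromosome 7, 12988346 to 12998192, minus strand) was at 102, 118 and 139 FPKM in KO and at 99.5 and 155 FPKM in WT libraries, a difference of -0.06 (SE 0.23, 95% interval -0.58 to 0.45). Baat (ENSMUSG00000039653, chromosome 4, 49489422 to 49506557, minus strand), which joins the activated bile acid to an amino acid, was at 16.0, 19.1 and 27.7 FPKM in KO and at 12.5 and 38.9 FPKM in WT libraries. The WT libraries of Baat were 1.56 log2 units apart, and its difference between the genotypes was -0.12 (SE 0.41, 95% interval -1.06 to 0.82).

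**Figure D2:**
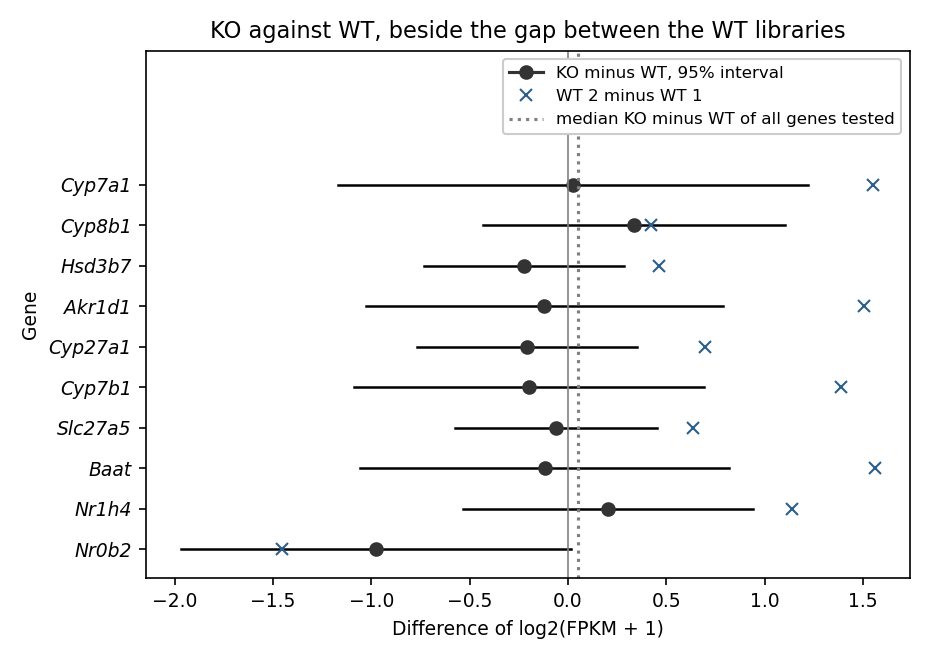
KO minus WT difference of log2(FPKM + 1) for each of the 10 genes (filled circle, with its 95% interval from limma), the difference of WT 2 minus WT 1 (cross) and the median difference of all genes tested (dotted line, 0.05). All 10 intervals include 0, that of Nr0b2 reaching from -1.97 to 0.01, and the crosses of 8 genes lie outside their own gene's interval, the exceptions being Cyp8b1 and Nr0b2.

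Nr1h4 (ENSMUSG00000047638, chromosome 10, 89454234 to 89533585, minus strand), the bile acid receptor FXR, was at 22.5, 23.7 and 34.1 FPKM in KO and at 15.0 and 34.1 FPKM in WT libraries. The KO values lay within the WT range, with a difference of 0.20 (SE 0.32, 95% interval -0.53 to 0.94). Nr0b2 (ENSMUSG00000037583, chromosome 4, 133553376 to 133556536, plus strand), the repressor SHP and a direct target of FXR, was at 5.03, 12.1 and 9.14 FPKM in KO, against 29.3 and 10.03 FPKM in WT libraries. WT 1 stood above all others, KO 2 was above WT 2, and KO 1 was lowest. The mean of Nr0b2 in KO was 0.445 times that in WT, with a difference of -0.98 (SE 0.44, 95% interval -1.97 to 0.01, unadjusted p = 0.0527, limma adjusted p = 0.999). Without WT 1 the difference was -0.25, and without WT 2 it was -1.71, so its size rested on WT 1.

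The promoters of Nr0b2, Cyp8b1 and Akr1d1 are shown since they belong, among the 10 genes, to the one with the largest difference, to the enzyme with the highest ratio of KO to WT mean (1.57), and to an enzyme whose WT libraries were far apart. Each window, from RefSeq on GRCm38.p6, runs from 250 bases before to 50 bases after the start on the gene's strand, and such windows were matched for 6 of the 10 genes. The windows lie at chr4:133553126-133553425 (plus strand), chr9:121916256-121916555 (minus strand) and chr6:37529923-37530222 (plus strand). Capitals mark letter matches, searched on both strands.
Nr0b2: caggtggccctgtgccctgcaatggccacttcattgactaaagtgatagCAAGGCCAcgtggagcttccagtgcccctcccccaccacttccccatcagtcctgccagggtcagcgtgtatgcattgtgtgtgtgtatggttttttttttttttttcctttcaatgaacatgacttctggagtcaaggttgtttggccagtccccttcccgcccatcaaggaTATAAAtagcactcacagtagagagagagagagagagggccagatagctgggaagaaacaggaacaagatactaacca
Cyp8b1: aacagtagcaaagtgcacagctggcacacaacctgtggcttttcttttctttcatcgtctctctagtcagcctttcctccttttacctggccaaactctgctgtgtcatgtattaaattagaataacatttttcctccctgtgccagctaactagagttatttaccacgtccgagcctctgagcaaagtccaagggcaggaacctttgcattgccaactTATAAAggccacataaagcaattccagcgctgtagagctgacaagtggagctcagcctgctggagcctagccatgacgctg
Akr1d1: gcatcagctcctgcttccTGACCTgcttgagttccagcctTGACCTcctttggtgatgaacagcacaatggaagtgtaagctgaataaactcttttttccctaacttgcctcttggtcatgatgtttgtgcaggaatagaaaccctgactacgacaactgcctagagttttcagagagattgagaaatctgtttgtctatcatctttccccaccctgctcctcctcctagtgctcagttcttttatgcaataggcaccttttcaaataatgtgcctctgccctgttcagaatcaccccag

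In the Nr0b2 window the capitals mark CAAGGCCA, one of the spellings searched for Nr5a2 (the others being CAAGGTCA and the reverse complements), at position -201 (counted on the gene's strand to the match's first base, with the start at 0), and TATAAA, the TATA box, at position -28. Nr5a2 is a nuclear receptor that acts at genes of bile acid synthesis. Cyp8b1 had TATAAA at position -31. In Akr1d1 the capitals mark TGACCT, the reverse complement of the nuclear receptor motif AGGTCA, at positions -232 and -210. The Nr5a2 letters occurred in 3.92% of 32851 windows, the TATA box in 13.6% and AGGTCA in 16.3%. AGGTCA also occurred in the Nr1h4 window, as TGACCT at position -214, the TATA box in no further member's window, and the inverted repeat of FXR (AGGTCA and TGACCT with 1 base between them), the HNF1 motif, the Onecut motif (ATCGAT or ATCAAT) and the D-box (TTATGTAA or TTACGTAA) in none of the 6. Those occurred in 0.00913%, 0.0609%, 8.4% and 1.06% of all windows. The HNF1 motif was GTTAAT and ATTAA with 1 base between them. Such matches describe letters and not binding.

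Across libraries, Nr1h4 and the enzymes other than Cyp8b1 shared their highest libraries, WT 2 and then KO 3, which crossed the genotypes. The order below these differed among genes. WT 2 was highest for 8 of the 10 genes, the exceptions being Cyp8b1 and Nr0b2, and KO 3 was second for 9, the exception being Nr0b2. WT 1 was lowest for 5 genes, KO 1 for 3 and KO 2 for 2. Like counts over all genes tested are not given here, so these places were not set against other genes. All 8 enzymes were higher in WT 2 than in WT 1, and their median difference of WT 2 minus WT 1 was 1.04 on the log2(FPKM + 1) scale. Of all genes tested 72.3% were higher in WT 2, and the median difference over all of them, higher or not, was 0.23. Nr0b2 ran the other way, at 29.3 FPKM in WT 1 and 10.03 FPKM in WT 2. Of the 10 genes, 7 had a lower and 3 a higher fitted level in KO, with a median difference of -0.12, against 38.6% lower and a median of 0.05 over all genes tested.

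**Figure D3:**
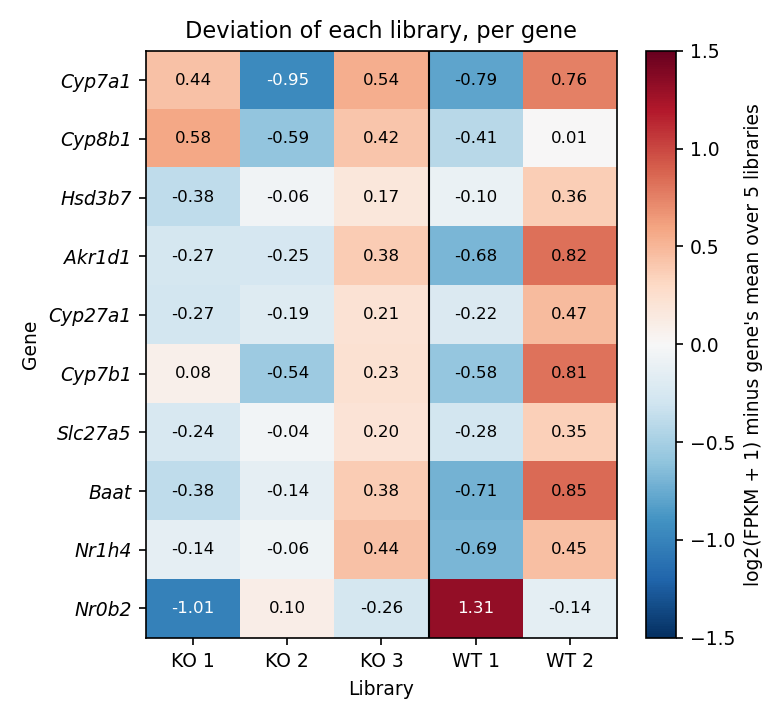
Heat map of log2(FPKM + 1) of each gene (rows) in each library (columns, KO left of the line and WT right of it) minus the gene's mean over the 5 libraries. Cyp7a1 is low in KO 2 (-0.95) and WT 1 (-0.79), Nr0b2 is high in WT 1 (1.31) and low in KO 1 (-1.01), and WT 2 is above the mean for all 8 enzymes.

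Genes outside the lists were ranked by likeness to Cyp7a1, so their resemblance to it follows from the choice. The genes with the pattern most like that of Cyp7a1 over the 5 libraries, of 9850 compared by the root mean square of centred log2(FPKM + 1) values, were Ms4a6d (0.12), Cyp4a14 (0.20) and Mup21 (0.22). Cyp4a14, a fatty acid hydroxylase, was at 3.29, 0.83 and 5.64 FPKM in KO and at 1.34 and 6.65 FPKM in WT libraries. Ms4a6d, of a family of membrane proteins, was at 3.10, 0.87 and 3.31 FPKM in KO and at 1.09 and 4.4 FPKM in WT libraries. Mup21, a major urinary protein whose reads may be shared with similar genes, was at 17.5, 7.16 and 15.7 FPKM in KO and at 9.14 and 26.4 FPKM in WT libraries. With only 5 libraries, many genes can share such an order.

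The genes most like Nr0b2 were Hsd17b6 (0.14), Nr1d1 (0.32) and Lyrm9 (0.37). Hsd17b6, a steroid dehydrogenase, was at 38.4, 67.5 and 49.2 FPKM in KO and at 166 and 55.4 FPKM in WT libraries. Nr1d1, the clock repressor REV-ERB alpha, was at 5.01, 8.24 and 4.46 FPKM in KO and at 26.4 and 6.54 FPKM in WT libraries. Lyrm9 was at 0.26, 1.89 and 1.71 FPKM in KO and at 3.01 and 1.89 FPKM in WT libraries. Dbp, a clock-driven activator of Cyp7a1 in rats that was chosen here after its values were seen, was at 27.2, 50.7 and 22.8 FPKM in KO and at 66.1 and 34.2 FPKM in WT libraries. KO 2 and WT 1, where Cyp7a1 was lowest, had the highest Dbp in their genotypes. The part of clock genes in the order of the bile acid genes was not tested.

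Marker lists of other cells and of liver zones were summed in each library. The 6 macrophage markers summed to 61.3, 31.7 and 64.9 FPKM in KO and to 37.0 and 47.6 FPKM in WT libraries, so KO 2 and WT 1 were again the low libraries of their genotypes. Of these markers, Clec4f and Marco were higher in WT 1 than in WT 2. The 6 cholangiocyte markers, most of whose sum was Spp1, came to 334, 154 and 348 FPKM in KO and to 150 and 423 FPKM in WT libraries. Krt19, at 1.49, 1.81 and 1.05 FPKM in KO and 0.61 and 1.56 FPKM in WT libraries, was highest in KO 2, the KO library with the lowest sum. Sox9 was higher in WT 1 (2.56 FPKM) than in WT 2 (1.09 FPKM), against the order of the sums. Sums of 8 pericentral hepatocyte markers were 223, 129 and 395 FPKM in KO and 134 and 282 FPKM in WT libraries, and sums of 8 periportal markers were 973, 1334 and 1604 FPKM in KO and 1411 and 2178 FPKM in WT libraries. The largest part of each pericentral sum was Cyp2e1, at 159, 58.3 and 321 FPKM in KO and 84.4 and 192 FPKM in WT libraries. Cyp1a2, of the same list, was highest in KO 2 (43.9 FPKM), and Axin2, Slc1a2 and Rhbg averaged under 1 FPKM. The macrophage, cholangiocyte, pericentral and periportal sums overlapped between the genotypes. All 8 periportal markers were nevertheless lower in fitted level in KO (median difference -0.58) and none passed. Over all genes tested 38.6% were lower. Hal was at 14.1, 18.1 and 28.3 FPKM in KO and 46.0 and 58.6 FPKM in WT libraries (difference -1.38, SE 0.27), and Sds at 26.7, 54.0 and 56.2 FPKM in KO and 97.3 and 141 FPKM in WT libraries (difference -1.41, SE 0.32). Hal, Sds and Sdsl did not overlap between the genotypes, where 15.1% of all genes tested did not. Ttr, Serpina1c, Hal, Sds and Sdsl were chosen after their values were seen. The 6 stellate cell and fibroblast markers summed to 71.1, 52.4 and 41.8 FPKM in KO and to 43.0 and 62.8 FPKM in WT libraries, so KO 3 was the lowest KO library. The 6 endothelial markers summed to 68.1, 39.4 and 52.3 FPKM in KO and to 44.4 and 37.6 FPKM in WT libraries, so WT 2 was the lower WT library. No marker of these lists was listed at 0 in all libraries. The 6 enterocyte markers summed to 39.4, 49.2 and 58.5 FPKM in KO and to 45.0 and 28.8 FPKM in WT libraries, with Fabp6 and Sis listed at 0 in each. Almost all of each sum was Fabp2 and Slc10a2, since Lct and Alpi were at 0.02 FPKM or less in every library. Of the tested markers, 6 of 6 endothelial, 4 of 4 cholangiocyte and 5 of 6 macrophage markers were higher in fitted level in KO. So were 4 of 6 stellate cell and fibroblast, 4 of 5 pericentral and 2 of 2 enterocyte markers, and none of these passed. The genotypes did not overlap for 2 endothelial, 1 macrophage and 1 stellate cell and fibroblast marker, where 15.1% of all genes tested did not. The part of these cells in the order of the bile acid genes was not tested.

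Among other genes of bile acid synthesis, 11 of 13 passed the filter and none passed the test. In fitted level 8 were higher and 3 lower, with a median difference of 0.14, against 38.6% lower and a median of 0.05 over all genes tested. Ch25h and Cyp46a1, sterol hydroxylases of other oxysterol routes, had mean values under 1 FPKM. Amacr, a racemase of the bile acid side chain, was at 14.2, 17.0 and 23.5 FPKM in KO and at 23.0 and 29.1 FPKM in WT libraries (difference -0.51, SE 0.23). Cyp39a1, an oxysterol hydroxylase, was at 26.3, 16.5 and 17.8 FPKM in KO and at 13.3 and 15.2 FPKM in WT libraries (difference 0.45, SE 0.22). The KO libraries of Cyp39a1 lay above both WT libraries, those of Amacr overlapped with WT, and neither passed (limma adjusted p = 0.999). Cyp2c70, which makes muricholic acids in mice, and the ligase Slc27a2 had differences of 0.32 (SE 0.24) and 0.24 (SE 0.17).

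All 18 regulators of bile acid synthesis were tested, and Onecut1, a homeobox factor of hepatocytes, was the member that passed. It rose to 11.6, 9.57 and 12.04 FPKM in KO libraries, against 2.20 and 2.39 FPKM in WT libraries (difference 1.87, SE 0.19, limma adjusted p = 0.047), and this call was lost in 10 of 15 alternatives. Its difference was 1.81 to 1.96 with 1 library left out and 1.14 to 2.21 over all 15, the ends being those with pseudocounts of 5 and 0.1. Zfp36l1, an RNA-binding protein that promotes decay of Cyp7a1 transcripts in mice, was at 37.1, 49.95 and 38.4 FPKM in KO and at 27.8 and 20.0 FPKM in WT libraries. Its KO libraries lay above the WT libraries, with a difference of 0.79 (SE 0.21) that did not pass (limma adjusted p = 0.999). Cebpa, a liver transcription factor, was at 101, 108 and 81.9 FPKM in KO and at 79.6 and 47.8 FPKM in WT libraries (difference 0.63, SE 0.24). Klb, the co-receptor through which FGF15 acts on hepatocytes, was at 3.27, 4.52 and 3.77 FPKM in KO and at 5.14 and 6.17 FPKM in WT libraries (difference -0.46, SE 0.20). Neither Cebpa nor Klb passed, though the genotypes did not overlap in either. Over the 18 genes 12 were higher and 6 lower in fitted level, with a median of 0.09, against 38.6% lower and a median of 0.05 over all genes tested. The genotypes did not overlap for 5 of the 18, against 15.1% of all genes tested. This list too was chosen with earlier results of these data known, so its counts may follow from the choice.

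The 9 FXR targets outside the 10 genes included Fgf15, which was listed at 0 in all libraries, and Slc51a, with a mean under 1 FPKM. Of the 7 tested none passed, and 6 were lower and 1 higher in fitted level in KO, against 38.6% lower over all genes tested. The median difference was -0.12, against 0.05 over all genes tested. The libraries of the genotypes did not overlap for 4 of the 7, against 15.1% of all genes tested. The list was chosen with earlier results of these data known, so these counts may follow from the choice. Slc51b, which forms a basolateral bile acid transporter with Slc51a, was at 0.45, 1.04 and 1.49 FPKM in KO and at 6.96 and 4.48 FPKM in WT libraries (difference -1.76, SE 0.27, limma adjusted p = 0.16). Abcb11, the canalicular bile salt pump, was at 15.7, 19.5 and 26.4 FPKM in KO and at 36.6 and 41.2 FPKM in WT libraries (difference -0.92, SE 0.23, limma adjusted p = 0.893). These had lower values in every KO library than in either WT library, as had Mafg, a repressor induced by FXR, at 5.10 to 5.70 FPKM in KO and 6.57 to 6.72 FPKM in WT libraries. Nr0b2 overlapped. Pltp, the phospholipid transfer protein, lay the other way, at 12.2 to 13.4 FPKM in KO and 7.75 to 9.98 FPKM in WT libraries (difference 0.50, SE 0.18, limma adjusted p = 0.999).

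The 4 carriers that take bile acids up into hepatocytes also differed widely among libraries of 1 genotype. Slco1b2 was at 15.2, 8.70 and 30.7 FPKM in KO and at 11.4 and 34.3 FPKM in WT libraries, and Slco1a4 at 1.5, 0.65 and 4.79 FPKM in KO and at 0.45 and 7.31 FPKM in WT libraries. For both, KO 2 was the lowest KO library and WT 1 the lower WT library. Slc10a1, the sodium-dependent bile acid carrier NTCP, was at 62.5, 63.5 and 113 FPKM in KO and at 69.1 and 94.3 FPKM in WT libraries. Slco1a1 was at 2.22, 0.48 and 1.65 FPKM in KO and at 0.51 and 0.95 FPKM in WT libraries. None of the 4 passed the test, and the genotypes overlapped in each.

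**Figure D4:**
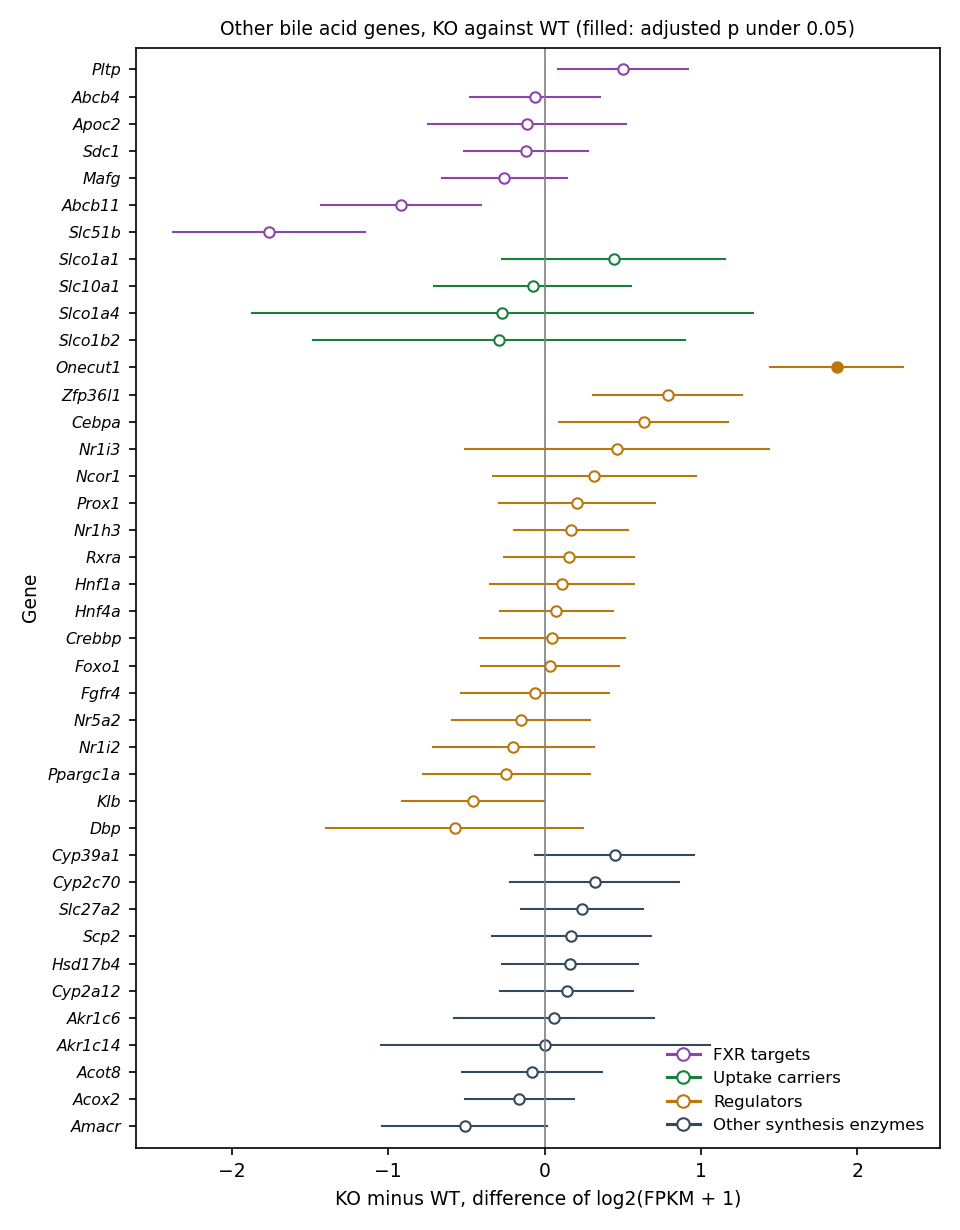
KO minus WT difference of log2(FPKM + 1) with its 95% interval for the tested genes of 4 further lists, with a filled circle where the adjusted p was under 0.05. Onecut1, at 1.87, is the filled circle, and Slc51b (-1.76) and Abcb11 (-0.92) lie furthest to the left.

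In the authors' deposited table the false discovery rate of each of the 10 genes was 0.99986, and its smallest p-value among them belonged to Nr0b2 (p-value 0.11, log2 fold change of KO over WT -1.17). In the authors' deposited table the log2 fold change of Cyp8b1 was 0.65 and that of Cyp7a1 was -0.05.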

How the data were processed

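RNA sequencing of liver tumours was analysed from 1 deposited table with 3 KO and 2 WT libraries, grouped by sample title. The authors deposited FPKM per library, rounded to 2 decimals, per the file headers. Per the file headers, it also holds group means in FPKM, a log2 fold change and a p-value with its false discovery rate, all computed by the authors with a tool not stated. Without roles or order, the submitters' processing notes list mm10, limma, DESeq2, StringTie, HISAT2 and bcl2fastq 2.0. Whether libraries of a genotype are separate animals is not stated in the labels, so p-values may measure only technical spread.

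A gene was tested if its FPKM averaged 1 or more in the 5 libraries, as log2(FPKM + 1) with limma 3.58.1 in R 4.3.3 (empirical Bayes with trend, two-sided, 3 residual degrees of freedom), adjusted by Benjamini-Hochberg over all genes tested at 0.05. The fit was tested on simulated data. Depth was estimated from the steps of FPKM times transcript length in genes with 1 annotated transcript of 300 to 1200 bases; the authors' gene lengths are not known, so fragment numbers are approximate. Of 22287 identifiers, 22253 were found in GENCODE vM21, and coordinates are 1-based. The named genes were the 10 members, up to 4 genes per further list by smallest unadjusted p, and the 3 genes most like Cyp7a1 and Nr0b2, without predicted genes; others were chosen after their values were seen. The members and lists were chosen with earlier results of these data known. Plots used Python 3.11.15 and matplotlib 3.10.9.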

Additional observations from a re-analysis of the deposited data

How the results depend on the processing

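No member passed the threshold in any of the 15 alternatives (smallest adjusted p 0.129, for Nr0b2 with the replicate block). The alternatives were pseudocounts of 0.1 and 5, no filter, a mean of at least 5 FPKM (which leaves out Cyp7a1, Cyp7b1 and Cyp8b1), robust empirical Bayes, no trend, quantile normalization, rescaling to a common sum or by median ratios, the replicate block and leaving out each library. Leaving out a WT library leaves 1, which is then assumed to vary like the KO libraries. The median difference of the members was -0.51 to 0.52 with 1 library left out (-0.51 without WT 1, 0.52 without WT 2), against medians over all genes of -0.07 and 0.16. With 1 library left out the difference was -0.75 to 0.80 for Cyp7a1, 0.11 to 0.70 for Cyp8b1, -0.87 to 0.63 for Akr1d1, -0.45 to 0.0096 for Hsd3b7, -0.56 to 0.14 for Cyp27a1, -0.89 to 0.50 for Cyp7b1, -0.90 to 0.66 for Baat, -0.38 to 0.25 for Slc27a5, -0.36 to 0.77 for Nr1h4 and -1.71 to -0.25 for Nr0b2. It was -1.05 to 0.46 for Slco1b2, -1.53 to 0.99 for Slco1a4 and -0.35 to 0.14 for Slc10a1, and -0.40 to 1.26 for the log2 ratio of Cyp8b1 to Cyp7a1. That of Cyp7a1 was -0.0005 with a pseudocount of 5, -0.0047 with quantile normalization and -0.24 with the replicate block. The cause was not tested.

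The titles share replicate numbers 1 and 2, and the labels do not say whether the numbers pair libraries. The deviations of same-numbered libraries had correlations across genes of 0.09 and -0.24. The deviations of WT 1 and WT 2 from their mean mirror each other, so these values cannot decide whether libraries were paired. The block took the count of genes past the threshold to 62, against 1 without it, and then included Slc51b (adjusted p = 1.38e-05) and Abcb11 (0.027) but no member. KO 3 is alone with its number and is fitted exactly under the block. The differences therefore equal those without KO 3, at -1.94 for Slc51b, whose limma adjusted p without KO 3 was 0.52. Few residual degrees of freedom remain under the block, so its count and p-values are weakly founded. The Onecut1 adjusted p was 6.07e-05 to 0.516 over the alternatives. The number of genes past the threshold was 32 with no filter, 17 without WT 1, 3 with robust empirical Bayes and 0 or 1 in the others. The lowest members rest on about 42 to 80 estimated fragments in KO 2 and WT 1.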
